A study of Homo sapiens with 36 samples.

Results

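The mitochondrial ribosomal protein genes were described as a group of 77, of the 15542 genes that were tested in 6 colon cancer cell lines treated with JQ1. Members were the rows whose human symbol begins with MRPL or MRPS followed by a number, with an RPKM (reads scaled to gene length and library size) of at least 1 in 3 or more libraries. The symbol alone matched 83 rows. The pseudogenes MRPL42P5, MRPL45P2 and MRPS31P5 and the noncoding transcripts MRPL20-AS1, MRPL23-AS1 and MRPS30-DT were left out. By symbol 49 members belong to the large subunit and 28 to the small subunit. All 77 exceeded an RPKM of 1 in all 36 libraries, so the filter on low values removed none of the protein-coding members.

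The treated cells received 0.5 µM JQ1 for 24 h and their controls received DMSO, the solvent, for 24 h. JQ1 inhibits the BET family of proteins by blocking their bromodomains, which otherwise bind acetylated histones at active genes. The lines HCT 116, SW 480, HT-29, COLO 205, HCT-15 and COLO 320 are established human colorectal cancer lines, and each had 3 JQ1 and 3 DMSO libraries. No genetic modification is named in the labels, and the cells were harvested in the logarithmic phase of growth.

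The mitochondrial ribosome translates the few messages encoded in mitochondrial DNA, which specify core subunits of the respiratory chain and of ATP synthase. All of its proteins are encoded in the nucleus, made in the cytosol and imported, and are assembled with ribosomal RNA transcribed inside the organelle. Some have counterparts in the ribosomes of all organisms, some only in those of bacteria, and others are found in mitochondria only. The colonic epithelium relies on mitochondrial respiration, with butyrate as a main fuel.

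Promoter sequence is shown for 5 members that stand for the range of responses described below. MRPL3 and MRPS18B fell in every line, MRPL22 was among the members with the lowest levels, MRPS10 varied most between lines, and MRPL53 rose in every line. Each window runs 5′ to 3′ on the gene's strand from 250 bases before the RefSeq start to 50 bases after it, in assembly GRCh38.p14. Capitals mark matches on either strand to an ETS core (CCGGAAG), a YY1 core (AAGATGGCG), an E-box (CACGTG) or the palindromic core of the NRF1 site, and no window shown holds the last of these. An ETS core and a YY1 core can share the 3 letters AAG.
MRPL3, chr3:131502922-131503221, reverse strand: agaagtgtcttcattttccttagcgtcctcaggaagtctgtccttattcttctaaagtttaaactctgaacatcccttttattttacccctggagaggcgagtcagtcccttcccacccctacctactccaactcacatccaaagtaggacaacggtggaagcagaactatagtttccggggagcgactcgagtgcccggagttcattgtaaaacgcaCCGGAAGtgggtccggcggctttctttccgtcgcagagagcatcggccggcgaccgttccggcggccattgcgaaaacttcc
MRPS18B, chr6:30617590-30617889, forward strand: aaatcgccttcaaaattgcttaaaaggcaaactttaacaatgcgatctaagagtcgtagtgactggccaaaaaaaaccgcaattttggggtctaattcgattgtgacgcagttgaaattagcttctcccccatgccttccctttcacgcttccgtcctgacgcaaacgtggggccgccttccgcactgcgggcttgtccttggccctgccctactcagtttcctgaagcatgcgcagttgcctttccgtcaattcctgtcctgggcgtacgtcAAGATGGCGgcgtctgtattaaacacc
MRPL22, chr5:154940823-154941122, forward strand: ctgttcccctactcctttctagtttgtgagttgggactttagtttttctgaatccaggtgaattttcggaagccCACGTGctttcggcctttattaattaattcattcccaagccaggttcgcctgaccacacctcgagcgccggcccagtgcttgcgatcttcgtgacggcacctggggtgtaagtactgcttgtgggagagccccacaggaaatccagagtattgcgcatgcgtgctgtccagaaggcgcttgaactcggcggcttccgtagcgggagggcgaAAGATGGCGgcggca
MRPS10, chr6:42217812-42218111, reverse strand: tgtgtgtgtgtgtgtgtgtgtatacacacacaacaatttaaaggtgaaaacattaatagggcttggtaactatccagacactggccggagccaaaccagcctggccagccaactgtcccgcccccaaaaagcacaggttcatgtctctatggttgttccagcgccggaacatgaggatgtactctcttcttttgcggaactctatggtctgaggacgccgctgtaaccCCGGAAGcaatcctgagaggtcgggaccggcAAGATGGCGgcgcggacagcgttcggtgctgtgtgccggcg
MRPL53, chr2:74472631-74472930, reverse strand: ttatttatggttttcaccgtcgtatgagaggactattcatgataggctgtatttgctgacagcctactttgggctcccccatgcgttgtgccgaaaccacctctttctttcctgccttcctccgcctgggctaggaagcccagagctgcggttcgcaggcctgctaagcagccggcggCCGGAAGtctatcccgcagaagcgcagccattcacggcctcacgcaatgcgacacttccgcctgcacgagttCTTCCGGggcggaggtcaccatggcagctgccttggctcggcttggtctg

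MRPL3 held 1 ETS core and MRPL53 held 2, although JQ1 moved these genes in opposite directions. Windows were found for 69 members, and 58 of these had a single window. An ETS core stood in a window of 30 members, 43.5% of the 69, against 21.3% of the 11426 tested genes with a window and 12.2% of all 27305 genes with one. A YY1 core stood in 13 members, 18.8%, against 4.42% of tested genes and 2.14% of all genes. The shares of members with the E-box bound by MYC and its relatives, 13.0% against 12.2% of tested genes, and with an NRF1 core, 1.45% against 2.56%, lay close to the background. Median average log2 changes of members with and without a motif were -0.27 and -0.40 for the ETS core, -0.37 and -0.33 for the YY1 core, and -0.30 and -0.36 for the E-box. These motifs were chosen with the changes known, and the matches are descriptions of letters only.

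Gene reads numbered 18.8 to 53.1 M per library (median 24.5 M), and individual members had 157 to 10510 reads in a library. HEXIM1, a transcript commonly used as a readout of BET inhibition, was higher after JQ1 in all 6 lines, by 1.06 to 2.67 on the log2 scale. Of the 10 colon epithelial markers all were measured, with summed levels of 883 to 9200 RPKM in JQ1 libraries and 1150 to 4400 RPKM in DMSO libraries. COLO 320 had the lowest sums, 883 to 1160 RPKM, carried by CDX2, with 834.4 to 866.7 RPKM after JQ1 and 1090.0 to 1105.0 RPKM in DMSO. In that line KRT8 and KRT18 lay between 18.92 and 36.73 RPKM and EPCAM at no more than 1.462 RPKM, and KRT19, CDH1, VIL1, LGALS4 and CDX1 had at most 5 reads in a library. Summed endothelial markers stayed at or under 1.47 RPKM. Summed fibroblast markers ranged over 0.181 to 3.84 RPKM in JQ1 libraries and 0.293 to 15.8 RPKM in DMSO libraries. In COLO 320, 3 of the 4 tested fibroblast markers were called lower, and COL3A1 averaged 2.647 RPKM after JQ1 and 13.2 RPKM in DMSO. Summed neuroendocrine markers ranged over 8.92 to 48.3 RPKM in JQ1 libraries and 8.78 to 40.7 RPKM in DMSO libraries. All 3 tested neuroendocrine markers were called higher on average, with a median log2 change of 0.41, and 0 of 3 in COLO 320 by limma. One of them, CHGA, had 93 to 186 reads in the libraries of SW 480 and at most 11 in any library of the other lines. The part of these markers in the members' changes was not tested, and without COLO 320 the members called on average were 66 lower and 8 higher. Summed leukocyte markers reached 1550 RPKM in HT-29 and 1070 RPKM in COLO 205, and at most 6.21 RPKM elsewhere. LYZ alone reached 1544 and 1066 RPKM in those lines. There PTPRC, a general leukocyte marker, and CD3E, a T cell marker, reached at most 0.00601 and 0.0267 RPKM. CD14, ITGAM and CD79A had at most 76, 71 and 8 reads in a library of HT-29. In COLO 205 they had at most 20, 11 and 6. PTPRC was detected in COLO 320, at 4.191, 4.153 and 3.858 RPKM after JQ1, against 3.444, 3.425 and 3.567 RPKM in DMSO.

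JQ1 lowered most mitochondrial ribosomal protein transcripts by a moderate amount in every line. On the average of the 6 lines, 65 of 77 members were called lower and 8 higher by limma with a Benjamini-Hochberg adjusted p under 0.05 over all tested genes. The background was 48.3% of all genes called lower and 40.2% called higher. The median log2 change, JQ1 minus DMSO on log2(RPKM + 0.5), was -0.35 for the members and -0.04 for all genes. Few members changed much: 11 were called at least 1.5-fold lower, against 9.02% of all genes, and 0 at least 1.5-fold higher, against 6.78%. The count of 0 rests on size, since the highest average log2 change was 0.47: limma called 8 members higher at an adjusted p and 8 at an unadjusted p under 0.05, and voom called 8. In bulk RNA, fewer cells of one kind and less RNA per cell cannot be told apart.

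Members called lower outnumbered those called higher in every line. In HCT 116, 54 members were called lower and 7 higher, against 35.5% and 32.4% of all genes, and a minimum of 1.2-fold left 32 lower. In SW 480, 62 were lower and 10 higher, against 40.1% and 33.9%. In HT-29, 61 were lower and 5 higher, against 37.3% and 36.6%. The share of members called lower thus exceeded that of all genes in each of these lines. In COLO 205, 64 were lower and 5 higher, against 38.6% and 34.2%. In HCT-15, 60 were lower and 11 higher, against 35.4% and 34.8%. In COLO 320, 60 were lower and 7 higher, against 37.2% and 31.0%. Replicates lay apart for about as many members, since all 3 JQ1 libraries were below all 3 DMSO libraries for 54 members in HCT 116, 60 in SW 480, 61 in HT-29, 64 in COLO 205, 60 in HCT-15 and 61 in COLO 320. The shares of all genes with that pattern were 36.3%, 39.9%, 37.9%, 39.3%, 36.9% and 39.1% in the same order of lines. Scaling by total reads left 6 members higher and 64 lower in HCT-15, and changed the calls of all genes there to 4311 higher and 6816 lower, against 5413 higher and 5503 lower as deposited.

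The members called lower were largely shared between lines. Of the 77, 44 were called lower in all 6 lines, which is 57.1%, against 11.7% of all genes. Only MRPL53 and MRPS14 were called higher in all 6 lines, against 11.2% of all genes. Since all members lie at 7.13 RPKM or more, a comparison with the 4883 genes at or above that level in every library was added after the values were seen. Of those, 48.6% were called lower on average and 18.5% were called lower in all 6 lines, with a median log2 change of -0.02.

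**Figure D1:**
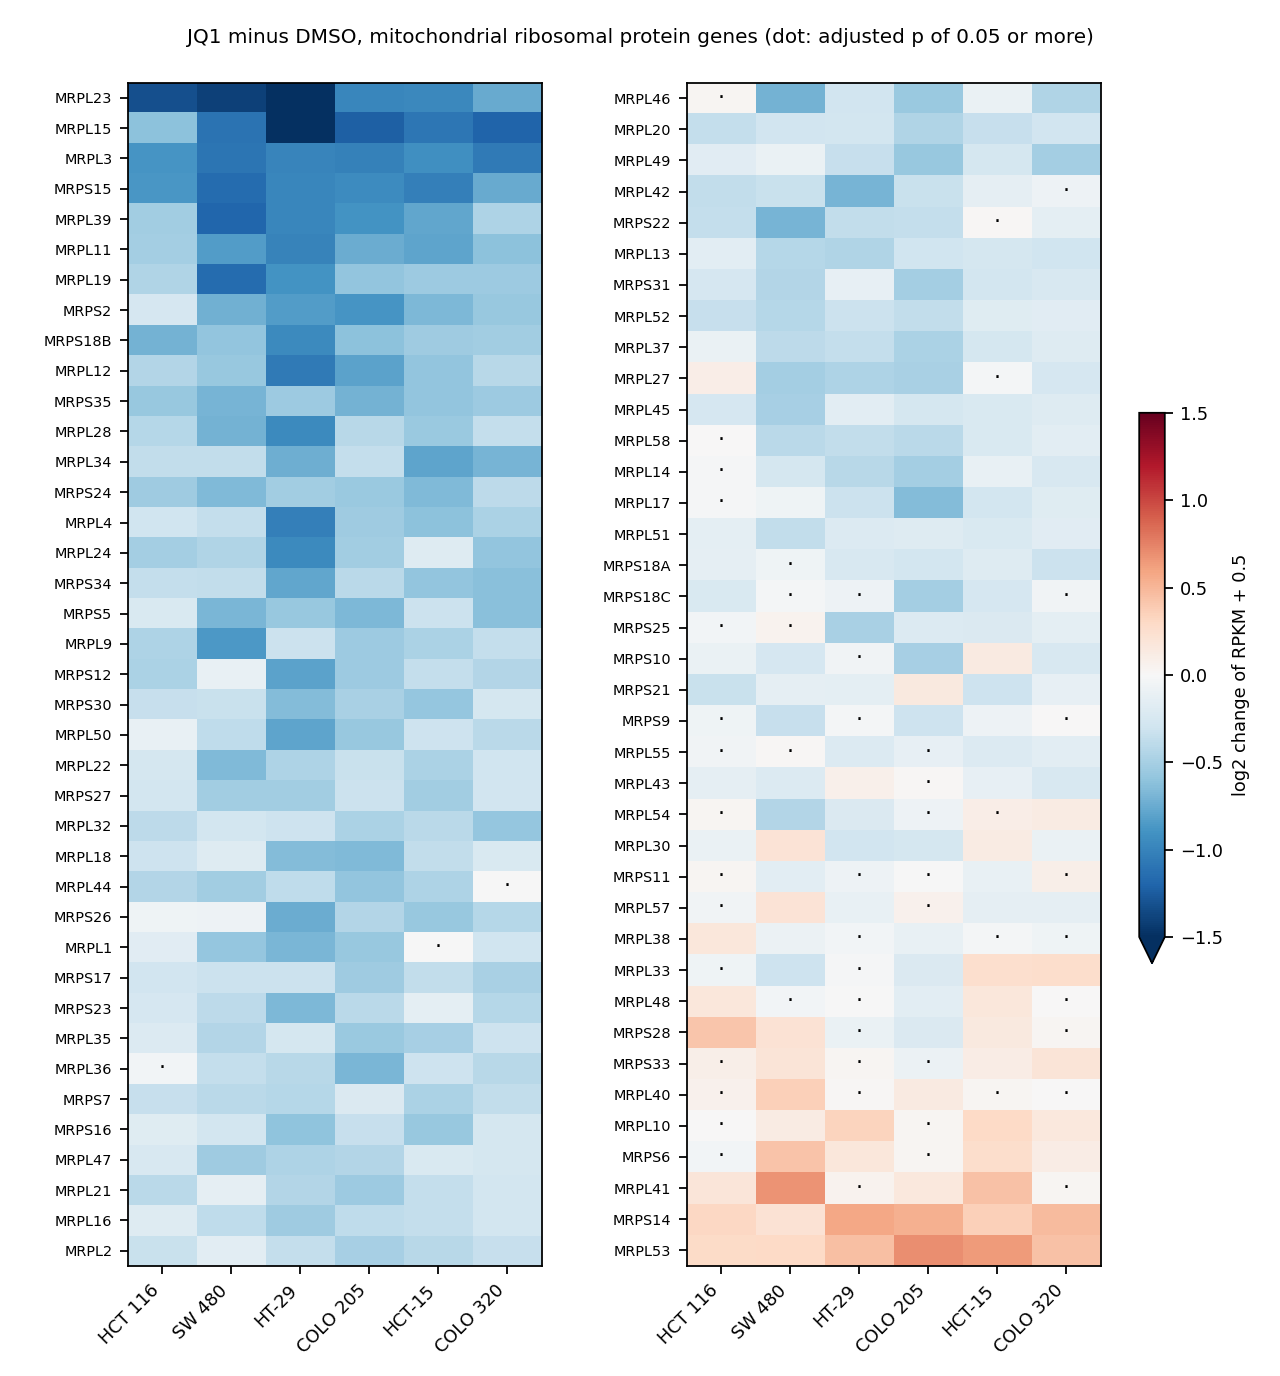
Log2 change of RPKM + 0.5, JQ1 minus DMSO, for the 77 members (rows, ordered by their average) in the 6 lines (columns). Blue is lower and red higher after JQ1, a dot marks an adjusted p of 0.05 or more, and blue fills most rows, with red in the lowest rows of the right panel.

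The summed level of the 77 members fell in each line, and no JQ1 library overlapped a DMSO library of its line. In HT-29 it was 3187, 3256 and 3204 RPKM after JQ1, against 4431, 4433 and 4360 RPKM in DMSO, which is 27.1% lower. In HCT 116 it was 3606, 3572 and 3582 RPKM after JQ1, against 4271, 4243 and 4334 RPKM in DMSO, which is 16.3% lower. These were the lines with the largest and the smallest percentage. Sums averaged 3876 ± 41 RPKM after JQ1 and 5192 ± 34 RPKM in DMSO in COLO 205 (SD, n = 3 each), 25.3% lower. The other lines lay between, at 20.6% lower in SW 480, 20.2% in HCT-15 and 19.4% in COLO 320. COLO 205 had the highest summed level of the 6 lines with either treatment.

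MRPL23, a large subunit protein at the exit of the peptide tunnel, showed the largest average fall. In HT-29 it had 31.59, 34.38 and 29.37 RPKM after JQ1, against 113.0, 109.4 and 115.7 RPKM in DMSO. In SW 480 it had 29.95, 30.45 and 32.61 RPKM after JQ1, against 87.0, 77.9 and 82.49 RPKM in DMSO. In HCT 116 it had 29.13, 29.52 and 28.08 RPKM after JQ1, against 71.57, 69.12 and 78.54 RPKM in DMSO. These 3 lines reached almost the same level after JQ1 from different levels in DMSO. In COLO 205 it had 78.87, 81.99 and 76.91 RPKM after JQ1, against 158.9, 150.0 and 159.9 RPKM in DMSO. In HCT-15 it had 40.43, 42.48 and 41.06 RPKM after JQ1, against 82.59, 79.92 and 82.02 RPKM in DMSO. In COLO 320 it had 103.9, 102.8 and 108.1 RPKM after JQ1, against 175.4, 180.1 and 176.6 RPKM in DMSO. The groups overlapped in none of the lines. Its gene shares 85 exon bases with MRPL23-AS1, which had at most 0.526 RPKM in any library. The fall of MRPL23 was 3.51-fold in HT-29 and 1.69-fold in COLO 320, with an average log2 change of -1.21 ± 0.02 (SE, limma adjusted p = 3.83e-29). This SE and p, like those of the averages below, rest on the spread of libraries within groups and do not cover the spread between lines.

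MRPL15, another large subunit protein of universal type, was next. It had 12.43, 12.79 and 13.0 RPKM after JQ1 in HT-29, against 37.9, 36.92 and 37.27 RPKM in DMSO, a 2.86-fold fall. In HCT 116 it had 25.61, 23.82 and 26.9 RPKM after JQ1, against 39.51, 39.7 and 38.03 RPKM in DMSO, a 1.53-fold fall. The 4 other lines lay between these, and no groups overlapped. Its average log2 change was -1.12 ± 0.02 (SE, limma adjusted p = 8.2e-30).

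MRPL3, a core protein of the large subunit in which recessive mutations cause cardiomyopathy, fell by nearly the same factor in every line. In SW 480 it had 52.31, 49.52 and 48.77 RPKM after JQ1, against 107.6, 105.6 and 109.4 RPKM in DMSO. In HCT 116 it had 68.89, 65.95 and 69.67 RPKM after JQ1, against 124.7, 124.6 and 129.2 RPKM in DMSO. These were its largest fall, 2.13-fold, and its smallest, 1.85-fold. In COLO 205, where it was highest, it had 78.52, 79.94 and 76.19 RPKM after JQ1, against 157.9, 157.3 and 158.7 RPKM in DMSO. In HT-29, HCT-15 and COLO 320 it was 1.99-fold, 1.89-fold and 2.08-fold lower. The average log2 change was -0.99 ± 0.01 (SE, limma adjusted p = 9.85e-32), and its range over the lines, 0.21, was among the narrowest of the members.

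MRPS15, a small subunit protein that binds the ribosomal RNA directly, was the small subunit member with the largest average fall. In SW 480 it had 37.76, 37.23 and 36.59 RPKM after JQ1, against 81.18, 83.25 and 86.4 RPKM in DMSO, a 2.23-fold fall. In COLO 320 it had 54.38, 52.13 and 56.04 RPKM after JQ1, against 92.9, 89.02 and 92.71 RPKM in DMSO, a 1.68-fold fall. Groups were apart in all 6 lines, and the average log2 change was -0.96 ± 0.01 (SE, limma adjusted p = 2.58e-32).

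**Figure D2:**
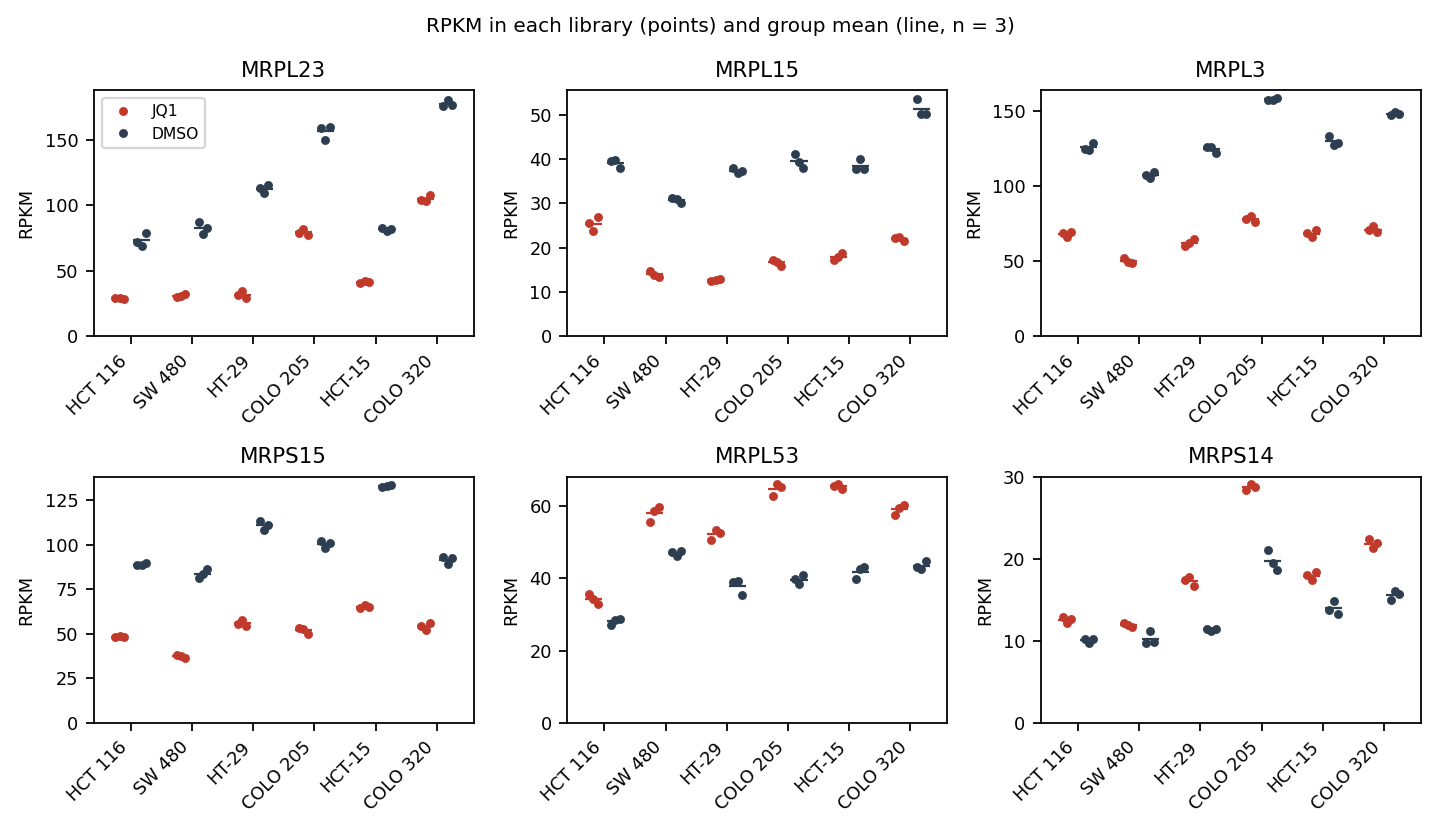
RPKM in each library (points) and group means (lines, n = 3) of 6 members, JQ1 in red and DMSO in dark grey, by line. JQ1 libraries lie below the DMSO libraries of their line for MRPL23, MRPL15, MRPL3 and MRPS15 and above them for MRPL53 and MRPS14.

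The other members with an average fall of at least 1.5-fold were MRPL39, MRPL11, MRPL19, MRPS2, MRPS18B, MRPL12 and MRPS35. MRPL39, which resembles a threonyl-tRNA synthetase, averaged 17.1 ± 0.991 RPKM after JQ1 and 39.66 ± 2.6 RPKM in DMSO in SW 480 (SD, n = 3 each), a 2.28-fold fall. In COLO 320 it averaged 13.76 ± 0.517 RPKM after JQ1 and 19.16 ± 0.472 RPKM in DMSO, a 1.38-fold fall. MRPL11 and MRPL12 belong to the stalk that recruits translation factors, and MRPL12 has also been described to bind the mitochondrial RNA polymerase. MRPL12 averaged 68.18 ± 3.41 RPKM after JQ1 and 142.1 ± 2.58 RPKM in DMSO in HT-29, a 2.08-fold fall. In COLO 320 MRPL12 averaged 116.4 ± 1.23 RPKM after JQ1 and 155.8 ± 1.17 RPKM in DMSO, a 1.34-fold fall. MRPL11 was lower by 1.42-fold in HCT 116 to 2.0-fold in HT-29. MRPL10, the protein that anchors the same stalk, went the other way, with an average log2 change of 0.16.

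Genes of both subunits were mostly called lower, and the difference between the subunits was not tested. Of 49 MRPL genes, 41 were called lower and 4 higher on average, against 48.3% and 40.2% of all genes, with a median log2 change of -0.34. Of 28 MRPS genes, 24 were called lower and 4 higher, with a median of -0.37. Grouped by the ribosome names that RefSeq lists, the 26 members of universal families had 24 lower and 2 higher, and a median of -0.38. The 18 members shared with bacteria had 16 lower and 1 higher, and a median of -0.37. The 31 members with names of the mitochondrial class had 24 lower and 4 higher, and a median of -0.30. That class goes by name only, and includes MRPS18A and MRPS18B, paralogues of a bacterial protein, and MRPL58, a release factor homologue. The shares of all genes given above are the background for each of these counts, and differences between the families were not tested. MRPS18A and MRPS30, called mL66 and mL65 in that scheme, belong to the large subunit by name. For 2 members, MRPS24 and MRPS28, no such name was found in RefSeq, so the family counts leave them out.

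Values of members with better known roles follow. MRPL58, a release factor homologue built into the large subunit, was lower in 5 lines, with an average log2 change of -0.26, and its log2 change in HCT 116 was 0.00 and not called. MRPS12, a protein of the decoding site whose gene shares 349 exon bases with SARS2, was lower in all 6 lines, with log2 changes of -0.12 in SW 480 to -0.80 in HT-29. The libraries' strand is not stated, so reads of such overlapping genes cannot be told apart, which holds for 18 members that share at least 50 exon bases with another gene of the table. MRPS27, a pentatricopeptide repeat protein, and MRPS30 fell in all 6 lines, with average log2 changes of -0.41 and -0.44. MRPS34, in which mutations cause a Leigh-like disease, fell in all 6 lines, and averaged 83.05 ± 2.5 RPKM after JQ1 and 142.8 ± 1.7 RPKM in DMSO in HT-29. MRPL45, which resembles the yeast membrane anchor of the ribosome, fell in all 6 lines with an average of -0.26, and some of its reads may come from the pseudogene MRPL45P2, as may some of MRPL42 and MRPS31 from MRPL42P5 and MRPS31P5. MRPL44, which resembles ribonuclease III, fell in 5 lines, and its log2 change of -0.01 in COLO 320 was not called.

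The paralogues of one bacterial protein, MRPS18A, MRPS18B and MRPS18C, differed in how much they changed. MRPS18B was lower in every line, with log2 changes of -0.52 in COLO 320 to -0.95 in HT-29 and an average of -0.65 ± 0.01 (SE, limma adjusted p = 1.73e-27). MRPS18A averaged -0.21 and was called in 5 lines. MRPS18C averaged -0.19 and was called in 3 lines, HCT 116, COLO 205 and HCT-15. Reads of MRPS18A may include those of RSPH9, with 604 shared exon bases, and reads of MRPS18C those of ABRAXAS1, with 1178. The difference between the paralogues was not tested.

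On average 8 members were called higher: MRPL53, MRPS14, MRPL41, MRPS6, MRPL10, MRPL40, MRPS33 and MRPS28, in order of size. Mean log2 changes were above 0 in all 6 lines for 5 members, called or not, and MRPL53 and MRPS14 were called in all 6. MRPL53, a large subunit protein found in mitochondria only, showed the largest average rise. In COLO 205 it had 62.8, 66.26 and 65.21 RPKM after JQ1, against 39.84, 38.39 and 40.8 RPKM in DMSO. In HCT-15 it had 65.61, 66.19 and 64.69 RPKM after JQ1, against 39.89, 42.54 and 43.28 RPKM in DMSO. In HT-29 it had 50.66, 53.4 and 52.55 RPKM after JQ1, against 39.04, 39.33 and 35.38 RPKM in DMSO. In all 3 lines the JQ1 libraries lay above the DMSO libraries. In COLO 320 it had 57.64, 59.56 and 60.25 RPKM after JQ1, against 43.26, 42.67 and 44.72 RPKM in DMSO. In SW 480 it had 55.69, 58.75 and 59.77 RPKM after JQ1, against 47.25, 46.28 and 47.46 RPKM in DMSO. In HCT 116 it had 35.76, 34.28 and 33.03 RPKM after JQ1, against 27.02, 28.56 and 28.68 RPKM in DMSO. The groups were apart there too, and MRPL53 rose 1.62-fold in COLO 205 and 1.22-fold in HCT 116. Its average log2 change was 0.47 ± 0.02 (SE, limma adjusted p = 9.72e-22).

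MRPS14, a universal protein of the small subunit with one of the lowest levels among the members, was the other gene that rose in all 6 lines. In HT-29 it had 17.39, 17.72 and 16.72 RPKM after JQ1, against 11.47, 11.24 and 11.4 RPKM in DMSO, a 1.5-fold rise. In SW 480 it had 12.2, 11.95 and 11.67 RPKM after JQ1, against 9.731, 11.2 and 9.805 RPKM in DMSO, a 1.16-fold rise. The groups stayed apart in every line, and the average log2 change was 0.41 ± 0.02 (SE, limma adjusted p = 1.75e-18).

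Of the other members called higher on average, none was called in all 6 lines. MRPL41, also reported as a partner of BCL2, averaged 126.4 ± 16.1 RPKM after JQ1 and 78.84 ± 6.81 RPKM in DMSO in SW 480 (SD, n = 3 each), a 1.59-fold rise. In COLO 320 it averaged 125.1 ± 8.79 RPKM after JQ1 and 122.9 ± 6.6 RPKM in DMSO, with overlapping libraries and no call. MRPL10 was called higher in SW 480, HT-29, HCT-15 and COLO 320, at most 1.26-fold in HT-29. MRPS6 was called higher in the same 4 lines, at most 1.35-fold in SW 480. MRPL40 was called higher in SW 480 and COLO 205, at most 1.28-fold in SW 480. With the 6 lines rather than the libraries as replicates, MRPL53 and MRPS14 were the only members called higher on average, and the adjusted p was 0.059 for MRPL41, 0.0884 for MRPL10, 0.108 for MRPS6 and 0.228 for MRPL40.

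The size of the response differed between lines for 76 of 77 members by the F test on the JQ1 change, against 93.3% of all genes. MRPL55 was the exception, with an adjusted p of 0.0631 by limma. The 6 members with the smallest p for this difference were MRPL19, MRPL17, MRPS2, MRPL46, MRPS26 and MRPL23. MRPL19 averaged 7.408 ± 0.453 RPKM after JQ1 and 17.06 ± 0.552 RPKM in DMSO in SW 480, a 2.22-fold fall. In HCT 116 MRPL19 averaged 13.37 ± 0.256 RPKM after JQ1 and 18.43 ± 0.436 RPKM in DMSO, a 1.36-fold fall. MRPL19 therefore fell in both, but by different factors. MRPL46 averaged 14.54 ± 0.526 RPKM after JQ1 and 24.02 ± 0.823 RPKM in DMSO in SW 480, a 1.63-fold fall. In HCT 116 MRPL46 averaged 25.95 ± 0.585 RPKM after JQ1 and 25.31 ± 0.186 RPKM in DMSO, with overlapping libraries and no call. MRPL17 was 1.57-fold lower in COLO 205, with a log2 change of -0.02 and no call in HCT 116. MRPS26 fell 1.67-fold in HT-29 and only 1.05-fold in HCT 116, where its libraries overlapped. MRPS2 was 1.85-fold lower in COLO 205 and 1.19-fold lower in HCT 116.

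Across the members, the highest log2 change, which is the smallest fall or the largest rise, lay most often in HCT 116. It was the line of the smallest fall or largest rise for 28 members, and the line of the largest fall or smallest rise for 4. The largest fall or smallest rise lay in HT-29 for 22 members, in COLO 205 for 21 and in SW 480 for 20. The median log2 change of the members was -0.44 in COLO 205, -0.39 in HT-29 and -0.37 in SW 480. It was -0.27 in COLO 320, -0.27 in HCT-15 and -0.23 in HCT 116, while the median of all genes lay between -0.02 and 0.00. The order of the lines depended on the scaling. With quantile scaling the members' median was -0.361 in HT-29, -0.343 in SW 480 and -0.336 in COLO 205. With total reads it was -0.454 in HT-29, -0.425 in COLO 205, -0.391 in HCT-15 and -0.385 in SW 480. HCT 116 had the smallest median fall with both. The range over the lines was widest for MRPL23, 1.06 on the log2 scale. MYC, a transcription factor that drives growth, was lower in all 6 lines, with log2 changes of -0.14 in SW 480, -0.65 in COLO 320, -0.75 in HCT-15, -0.85 in HCT 116, -1.23 in COLO 205 and -1.35 in HT-29. Its level differed far more: COLO 320 had 122934 to 125003 MYC reads in DMSO libraries and still 65522 to 79692 after JQ1. No library of the other lines had more than 12451 MYC reads. The relation of the changes of MYC and of the members over the lines was not tested.

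**Figure D3:**
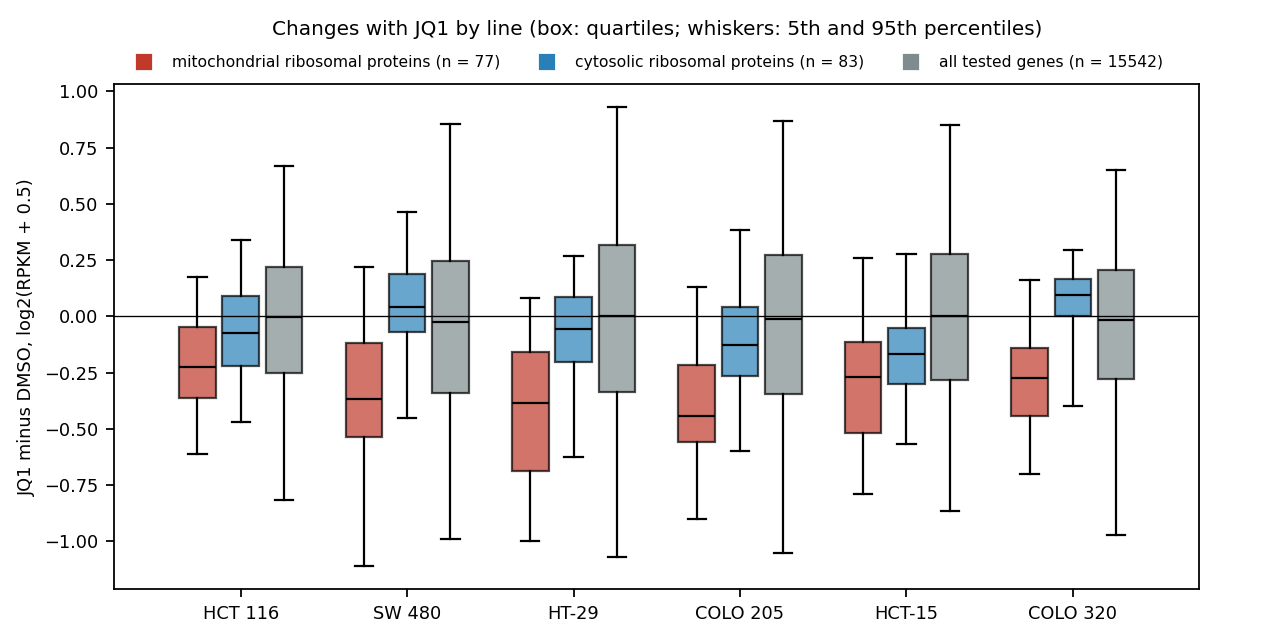
Log2 change of RPKM + 0.5, JQ1 minus DMSO, in each line for the 77 mitochondrial and 83 cytosolic ribosomal protein genes and for all 15542 tested genes. Boxes show quartiles and whiskers the 5th and 95th percentiles, and the medians of the mitochondrial genes lie between -0.44 and -0.23.

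Opposite calls between lines were found for 11 members, 14.3%, which were called lower in at least 1 line and higher in at least 1, against 33.6% of all genes. They were MRPL27, MRPL30, MRPL33, MRPL38, MRPL43, MRPL48, MRPL54, MRPL57, MRPS10, MRPS21 and MRPS28, and except for MRPS10, MRPS21 and MRPS28 they are named because of these values. MRPL33 averaged 104.1 ± 0.212 RPKM after JQ1 and 86.87 ± 3.79 RPKM in DMSO in COLO 320 (SD, n = 3 each). In SW 480 it averaged 73.09 ± 1.57 RPKM after JQ1 and 90.88 ± 1.21 RPKM in DMSO. MRPL33 was thus 1.2-fold higher in the one and 1.24-fold lower in the other, with no call on average. MRPS28 averaged 75.53 ± 3.97 RPKM after JQ1 and 56.29 ± 1.29 RPKM in DMSO in HCT 116, a 1.34-fold rise. In COLO 205 MRPS28 averaged 63.89 ± 1.79 RPKM after JQ1 and 74.38 ± 0.93 RPKM in DMSO, a 1.16-fold fall. Without HCT 116 the average change of MRPS28 was no longer called, at a log2 change of 0.02 and an adjusted p of 0.494. MRPL27 was 1.07-fold higher in HCT 116 and 1.43-fold lower in SW 480.

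In DMSO all 77 members differed between the lines by the F test, against 98.8% of all genes. The highest mean levels over the DMSO libraries were those of MRPL12 with 159.3 RPKM, MRPL51 with 152.6 RPKM, MRPL3 with 132.6 RPKM and MRPS34 with 132.4 RPKM. The lowest were those of MRPS25 with 12.44 RPKM, MRPL22 with 13.23 RPKM, MRPS14 with 13.49 RPKM and MRPL19 with 19.77 RPKM. RPKM is scaled to gene length, and the length behind it was 677 to 1764 bases for the 4 highest and 2237 to 7827 bases for the 4 lowest, so the order may depend on the gene models used. MRPL51 shares 382 exon bases with NCAPD2 and MRPS25 shares 756 with NR2C2. COLO 205 was the line with the highest DMSO level for 27 members.

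MRPS10, a universal protein of the small subunit, varied most between lines. In COLO 205 it had 141.6, 140.2 and 138.6 RPKM after JQ1, against 197.4, 197.1 and 197.9 RPKM in DMSO. In the other 5 lines its DMSO means lay between 12.4 and 25.16 RPKM. COLO 205 was 12.4-fold above the median of the other lines in DMSO, and JQ1 lowered the level there 1.41-fold. In HCT-15 it had 13.22, 14.13 and 13.65 RPKM after JQ1, against 12.66, 12.06 and 12.48 RPKM in DMSO, a 1.1-fold rise.

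The genes next to MRPS10 on chromosome 6 were also high in COLO 205. All of the 14 nearest tested genes, 7 on either side, had a higher DMSO mean in COLO 205 than in any other line, against 19.3% of all tested genes. Their median log2 difference from the median of the other lines was 2.46. CCND3, which encodes cyclin D3, had 158.9 RPKM in COLO 205 and 15.96 to 57.18 RPKM elsewhere. BYSL, a ribosome biogenesis factor of the cytosol and nucleus, had 128.4 RPKM in COLO 205 and 21.53 to 37.39 RPKM elsewhere. With JQ1 these neighbours did not move together: in COLO 205 BYSL had a log2 change of -0.97, MED20 one of 0.20 and UBR2 one of 0.74. The number of gene copies was not measured here. The neighbours were looked at because of the levels of MRPS10.

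**Figure D4:**
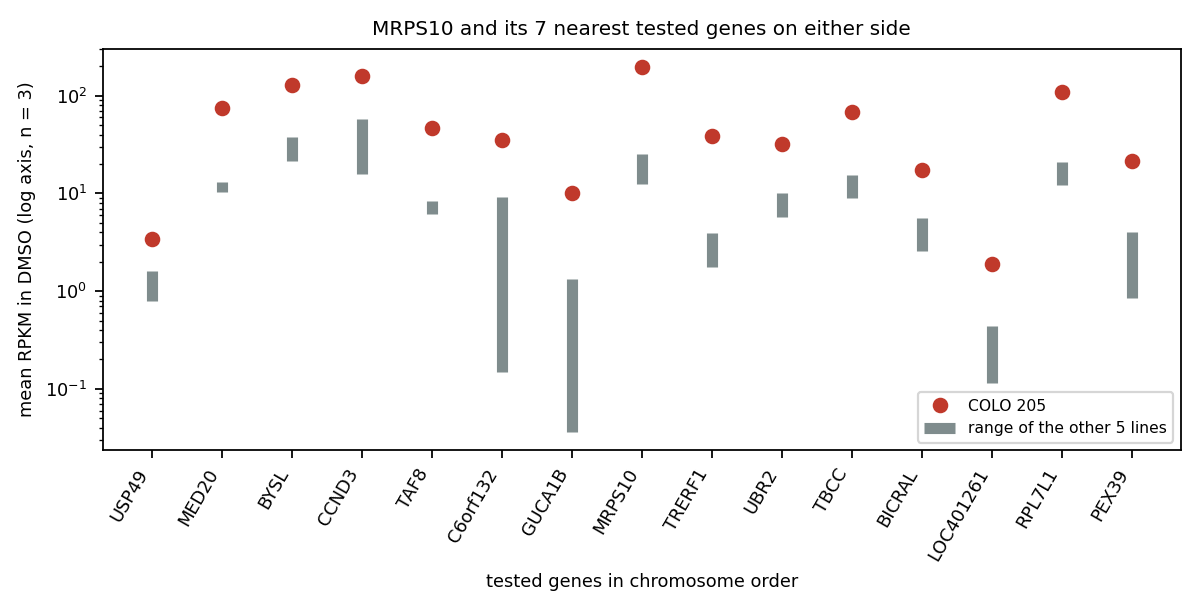
Mean RPKM in DMSO (log axis, n = 3 libraries) of MRPS10 and its 7 nearest tested genes on either side, in chromosome order. Red points are COLO 205 and grey bars the range of the other 5 lines, and every red point lies above its bar.

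The 3 members with the next widest ranges did not share this feature to the same extent. MRPL13 was highest in HT-29, where it averaged 133.2 ± 2.38 RPKM after JQ1 and 181.5 ± 2.47 RPKM in DMSO (SD, n = 3 each). Among its 14 nearest tested genes, 6 were highest in HT-29, against 16.0% of all genes. The median log2 difference of the neighbours was 0.94 for MRPL13, 0.32 for MRPS6 and -0.22 for MRPS21. Of the MRPL13 neighbours not highest in HT-29, TNFRSF11B, CCN3, ENPP2, HAS2 and HAS2-AS1 had at most 0.5284 RPKM there. The others, SNTB1, ZHX2 and DEPTOR, had 41.89, 5.598 and 3.029 RPKM. MRPS6 was highest in SW 480, with 207.6, 203.9 and 204.2 RPKM after JQ1, against 153.7, 148.5 and 154.5 RPKM in DMSO. Its gene shares 176 exon bases with SLC5A3, and 3 of its 14 neighbours were highest in SW 480, against 17.6% of all genes. MRPS21 was lowest in SW 480, where it averaged 13.14 ± 0.946 RPKM after JQ1 and 14.46 ± 0.288 RPKM in DMSO, and 6 of its 14 neighbours were lowest there, against 15.4% of all genes.

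In lists of other genes of mitochondrial gene expression, more were called lower than higher. The counts concern the average of the 6 lines, for which 48.3% of all genes were called lower and 40.2% higher, with a median of -0.04. Of 6 genes listed as mitochondrial ribosomal proteins under other symbols, 4 were lower and 1 higher, with a median log2 change of -0.15. GADD45GIP1 fell by 0.48 on the log2 scale, and DAP3 had a change of -0.01 and no call. KGD4, the 1 called higher, had a change of 0.14. It was once named MRPS36 and is now assigned to the oxoglutarate dehydrogenase complex, but is kept in these counts and the median. Of 26 assembly factors, 19 were lower and 5 higher, with a median of -0.20. MRM1, which methylates the large ribosomal RNA, fell by 0.85 and RCC1L, which is needed for the large subunit, by 0.69. The GTPases NOA1 and MTG1, which act in assembly, rose by 0.43 and 0.34, and RPUSD3, YBEY and NSUN4 by 0.21, 0.13 and 0.06.

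Of 16 translation factors, 13 were lower and 3 higher, with a median log2 change of -0.20. TACO1, an activator of translation of a cytochrome oxidase subunit, fell by 0.86 and MRRF, the recycling factor, by 0.51. MTFMT, which formylates the initiator transfer RNA, rose by 0.37, the release factor MTRF1L by 0.12 and the membrane insertase OXA1L by 0.08. All 12 genes of mitochondrial transcription and RNA processing were lower, with a median of -0.36. PRORP, the protein-only ribonuclease that trims transfer RNA ends, fell by 0.95 and PNPT1, a ribonuclease of RNA turnover, by 0.71. None of these 12 was called higher by limma, 0 at an unadjusted p under 0.05 and 0 by voom. Of 9 regulators of mitochondrial biogenesis, 8 were lower, with a median of -0.32. MYC fell by 0.83, PPRC1 and PPARGC1B, which act as coactivators, by 0.77 each, and PPARGC1A had a change of -0.02 with no call. PPARGC1A had at most 18 reads in a library of HCT 116, SW 480, HT-29 or HCT-15, and in those lines it lay at or near 0. It averaged 8.112 RPKM after JQ1 and 7.549 RPKM in DMSO in COLO 205, and 4.244 RPKM after JQ1 and 5.499 RPKM in DMSO in COLO 320. By limma 0 regulators were called higher, 0 at an unadjusted p under 0.05, and 1 by voom. Transcripts encoded in mitochondrial DNA were not analysed here.

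**Figure D5:**
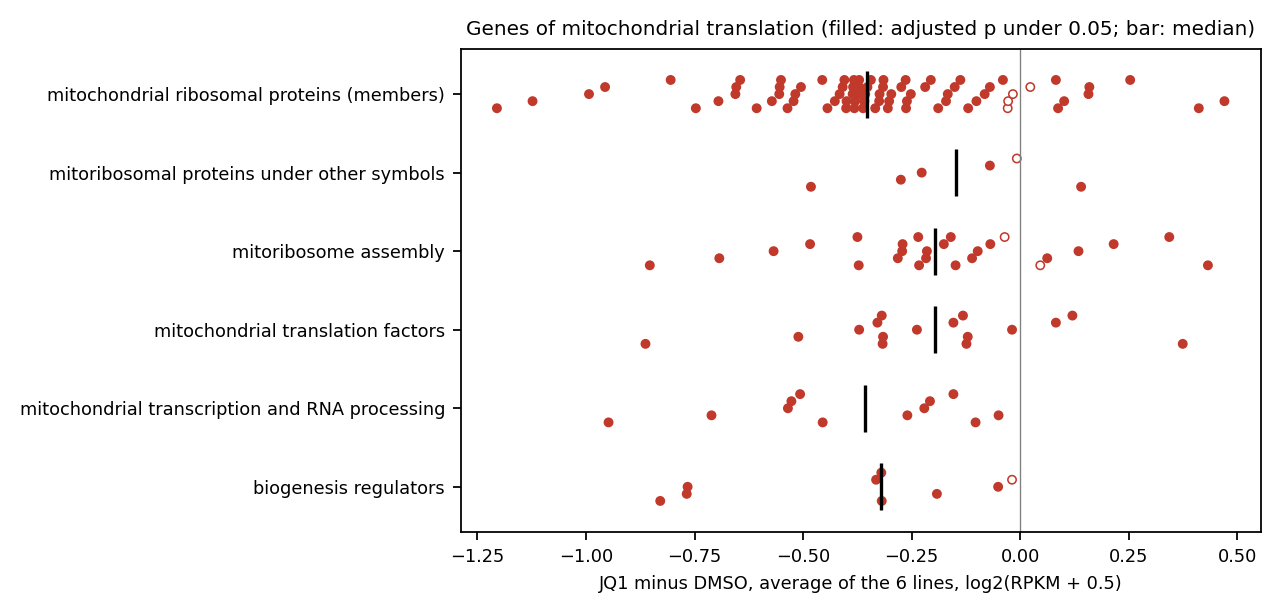
Average log2 change of RPKM + 0.5 over the 6 lines, JQ1 minus DMSO, of each gene (points) in 6 lists. Filled points have an adjusted p under 0.05 and bars are medians. These run from -0.36 for transcription and RNA processing to -0.15 for the genes under other symbols, KGD4 among them.

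Of 83 cytosolic ribosomal proteins, 45 were called lower and 28 higher on average, against 48.3% and 40.2% of all genes, with a median log2 change of -0.04, equal to that of all genes. In HCT-15, 56 were lower and 13 higher, against 35.4% and 34.8% of all genes. In COLO 320, 16 were lower and 49 higher, against 37.2% and 31.0%. The mitochondrial genes in the same lines had 60 lower and 11 higher, and 60 lower and 7 higher. Many cytosolic genes have processed pseudogenes that can take or lend reads, so their single values are uncertain. Summed over the list, cytosolic levels were 35258, 35355 and 35389 RPKM after JQ1, against 32153, 33105 and 32773 RPKM in DMSO in COLO 320. In HCT-15 they were 24711, 24940 and 24993 RPKM after JQ1, against 27064, 26827 and 26519 RPKM in DMSO. The sums of the 2 ribosomes thus moved in opposite directions in COLO 320 and in the same direction in HCT-15.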

How the data were processed

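Gene RPKM values were deposited by the authors as 1 table for the 36 libraries, and all 36 columns matched a sample (0 left over). Per the labels' protocols, TruSeq RNA kit libraries were prepared from total RNA. The submitters' processing notes list GSNAP, DESeq and limma without versions, and the build they name is NCBIM37, a mouse assembly name, although the gene identifiers are human. No coordinates of that build are printed. RefSeq (GRCh38.p14) gave symbols for 24519 of the 26468 genes. Nothing states that replicates were separate cultures, so the spread behind each p-value may be technical.

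Whole reads were recovered from the RPKM steps, within 0.01 read for 23498 of the 23499 genes above 0. A read per kilobase was worth 0.0191 to 0.0524 RPKM. No pair of replicates agreed within sampling noise (chi-square per gene 1.225 to 3.205 over 36 pairs). On log2(RPKM + 0.5), limma 3.58.1 in R 4.3.3 was fitted with a trend to 12 group means over all 36 libraries, for 15542 genes (RPKM of 1 or more in 3 or more libraries). Fold changes are on that scale, which understates changes of low genes. Two-sided p-values were adjusted by Benjamini-Hochberg within each contrast, and calls needed an adjusted p under 0.05. Promoter windows and ribosome names come from RefSeq (GRCh38.p14), and the 4 motifs were matched exactly on both strands. Exon overlaps come from GENCODE 29. The procedure was tested on simulated data. Python 3.11.15, numpy 2.4.6, pandas 2.3.3 and matplotlib 3.10.9 made the summaries.

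Members named with values were the 6 lowest and 6 highest changes on average, the 2 lowest and 2 highest in each line, the 6 with the smallest p between lines, the 4 highest and 4 lowest DMSO levels, the 4 widest DMSO ranges and a list of genes with known roles. From the context lists came the 2 largest changes and each gene called against its list. The members and lists were chosen with earlier results of these data known. Alternatives were other pseudocounts (0.1 and 1), no filter, 3 scalings, voom on recovered reads, single-line fits, the line as the unit, a 1.2-fold minimum, the replicate number as a block, and leaving out libraries or lines.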

Additional observations from a re-analysis of the deposited data

Results flagged for a closer look

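The JQ1 change differed between the lines, by limma's F test over all 6 lines, for 76 of the 77 members, against 93.3% of all genes. The smallest adjusted p values were 6.99e-15 for MRPL19, 1.27e-14 for MRPL17, 1.42e-14 for MRPS2, 1.45e-14 for MRPL46, 1.7e-14 for MRPS26 and 1.16e-13 for MRPL23. Among the members called in opposite directions in different lines, the same test gave 3.56e-11 for MRPL27, 3.69e-11 for MRPL30, 1.8e-09 for MRPL33, 0.000124 for MRPL38 and 3.63e-07 for MRPL43. It gave 3.19e-06 for MRPL48, 5.24e-08 for MRPL54, 2.23e-06 for MRPL57, 1.35e-11 for MRPS10, 2.73e-06 for MRPS21 and 4.66e-09 for MRPS28. Groups of 3 libraries are too small for a check of single outlying libraries.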

How the results depend on the processing

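Counts of members called were recomputed under the alternatives, and 731 stayed within 1.5 times the reported count while 12 did not. A minimum of 1.2-fold left 32 members lower in HCT 116, and left 3 higher in HCT 116, 4 in SW 480, 3 in HT-29, 2 in COLO 205, 4 in HCT-15, 2 in COLO 320 and 2 on average. Quantile scaling gave 8 higher in COLO 205, total reads gave 6 higher in HCT-15, and the line as the unit gave 2 higher on average, with 54 lower. Leaving out 1 library at a time gave 3 to 5 members higher in COLO 205, with 3 without COLO 205 JQ1 replicate 1, and 51 to 55 lower in HCT 116. The cause of these shifts was not tested beyond the construction of each alternative. No named member reversed; of their values, 3007 kept direction and side of the threshold and 11 were no longer called, 10 of them with the line as the unit. The last was MRPS28 without HCT 116. Beside MRPL41, MRPL10, MRPS6 and MRPL40, the 10 were MRPS28 (adjusted p = 0.468), MRPL17 (0.0508), MRPS25 (0.132), MRPS10 (0.151), MRPS21 (0.134) and MRPS18C (0.0862). The other lists moved more: with the line as the unit 12 assembly factors were lower and 2 higher, 7 translation factors lower and 1 higher, and 18 cytosolic ribosomal proteins lower and 12 higher. With a 1.2-fold minimum 9 assembly factors were lower and 2 higher, 7 translation factors lower and 1 higher, 6 genes of transcription and RNA processing lower, and 14 cytosolic ribosomal proteins lower and 7 higher. Of the genes under other symbols, KGD4 among them, 2 were then lower and 0 higher. Quantile scaling or leaving out COLO 205 gave 2 higher, the line as the unit 0. Leaving out COLO 320 gave 1 biogenesis regulator called higher.

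Same-numbered libraries of a line correlated at -0.148 to 0.049 in their deviations over 18 pairs, 0 of them over 0.1. No shared deviation by number was thus seen, which cannot show whether same-numbered samples were handled together. With the replicate block, 65 members were lower and 8 higher on average, 76 differed between lines, and single lines had 52 to 64 lower. At these depths counting noise is small for the members, with 157 reads at the least, and intervals on counts would cover counting error only.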
